A study of Mus musculus with 32 samples.

Results

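Ms4a4a, Ms4a4c, Ms4a6b, Ms4a6c, Ms4a6d and Ms4a7 are 6 mouse genes of the MS4A family, and their signals were followed in macrophage cell lines on 32 Affymetrix Mouse Gene 1.0 ST arrays. They are 6 of 19938 genes that the array table names by at least 1 probe set of their own. For a gene with several such probe sets, the probe set was selected on its mean over the 32 arrays; each of the 6 genes had 1 probe set, so no measured value decided which was used. The choice of these 6 genes was made with results of these arrays known.

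The arrays measured total RNA from 4 lines, 3AB, 3ABY721, Y721F and WT, each of which carries the prefix M-/- in the labels. The names refer to the form of the receptor for the growth factor CSF-1 that each line expresses: Y721F and 3AB lack Tyr-721 of that receptor, while WT and 3ABY721 have it, per the series' design text. Lines alike at Tyr-721 still carry receptor forms of different names, and the other differences between the forms are not described here. The culture medium held newborn calf serum and, unless cells were starved, human recombinant CSF-1. In the steady-state experiment each line was either grown in CSF-1 all along ("grown") or deprived of it ("starved"). In the time course, starved Y721F and WT cells received CSF-1 for 0, 20, 60 or 180 min. This gives 16 groups of 2 arrays, numbered I and II and described as biological replicates in the design text. Each receptor form is represented by 1 cell line, so a difference between receptor forms and a difference between lines cannot be told apart.

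MS4A proteins cross the membrane several times and have both ends inside the cell. The best known members are CD20 (Ms4a1), a B cell surface protein and antibody target, and the beta chain of the high-affinity IgE receptor (Ms4a2) of mast cells, which amplifies signalling by its partner chains. The 6 genes described here belong to the group found mainly in monocytes and macrophages, where human MS4A4A sits with the beta-glucan receptor dectin-1 in lipid rafts. CSF-1 keeps macrophages alive and dividing through its receptor tyrosine kinase, and phosphorylated Tyr-721 of that receptor is a docking site for PI3-kinase and phospholipase C-gamma.

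The lines read as macrophages. Of 12 listed macrophage markers 11 were measured, and their mean log2 signal was between 9.42 and 11.16 on the 32 arrays, with Csf1r between 12.72 and 13.41 and Cd163, the haemoglobin scavenger receptor, the dimmest at a mean of 4.73. Csf1r encodes the receptor whose form sets the lines apart, so it is not an independent marker here. How far its probe set reads RNA of the form expressed by a line was not tested. Marker lists of B cells, T cells, mast cells and basophils, granulocytes and dendritic cells averaged between 5.01 and 6.05 on every array, below the median of all gene values (6.54), and the fibroblast list averaged 6.04 to 7.05. In the B cell list, Cd79a, a chain of the B cell receptor, was dimmest with a mean of 4.21 over the arrays and Cd22, an inhibitory B cell receptor, brightest with 7.67. In the T cell list, Cd3g, a chain of the T cell receptor complex, was dimmest with 4.12 and the adhesion molecule gene Cd2 brightest with 8.02. In the fibroblast list 4 of the 6 genes averaged above the median of all gene values. Dcn was dimmest there with 4.73 and Pdgfra, a growth factor receptor gene, brightest with 7.91. Array medians ran from 5.97 to 6.22, and 4.85 was the 20th percentile of all gene values. A signal near or under that value is close to the array's floor, where differences are compressed. In bulk RNA, fewer cells that express a gene and less of its RNA per cell cannot be told apart.

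The Y721F line did not read alike in the 2 experiments. Starved Y721F cells of the steady state and Y721F cells at 0 min of the time course carry the same label of line and starvation, yet Ms4a6d read 5.56 and 5.05 in steady-state starved cells, against 10.59 and 10.75 at 0 min. The WT line read 11.54 on both arrays of starved cells and 12.38 and 11.73 at 0 min. Across 19938 genes the 2 conditions correlated at r = 0.968 in the Y721F line and r = 0.98 in the WT line, and 17 genes in Y721F and 7 in WT differed by more than 3 on the log2 scale. The difference between steady-state starved cells and WT starved cells correlated across genes with the difference of Y721F and WT at 0 min at r = 0.5 for the line labelled Y721F, at 0.17 for 3ABY721 and at 0.06 for 3AB. The experiments were fitted apart, and each result on Y721F is given per experiment.

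Among the Ms4a genes on mouse chromosome 19, RefSeq (GRCm38.p6) gives the order Ms4a7, Ms4a4a, Ms4a4c, Ms4a4b, Ms4a6c, Ms4a6b, Ms4a4d and Ms4a6d. Of these only Ms4a4b and Ms4a4d are not among the 6 genes. Genes of other names between them were not looked for. RefSeq promoter windows of 300 bases around a gene's start were used for 5 of the 6 genes, not Ms4a6d, with 2 windows for Ms4a7. Ms4a6b and Ms4a6c follow each other in the order above, on the plus strand. Their windows shared 72 bases in 2 runs of at least 15 identical bases, the longer of 48 bases. Both windows are shown because this shared stretch sits at a different distance from the start in each, chr19:11518309-11518608 for Ms4a6b and chr19:11469118-11469417 for Ms4a6c (plus strand, GRCm38.p6), with the shared runs in capitals.
Ms4a6b: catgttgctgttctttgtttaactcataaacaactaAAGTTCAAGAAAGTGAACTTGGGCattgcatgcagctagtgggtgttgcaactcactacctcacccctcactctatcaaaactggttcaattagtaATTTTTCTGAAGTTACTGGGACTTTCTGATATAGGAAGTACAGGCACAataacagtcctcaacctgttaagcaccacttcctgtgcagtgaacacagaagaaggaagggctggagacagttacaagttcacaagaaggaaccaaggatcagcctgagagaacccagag
Ms4a6c: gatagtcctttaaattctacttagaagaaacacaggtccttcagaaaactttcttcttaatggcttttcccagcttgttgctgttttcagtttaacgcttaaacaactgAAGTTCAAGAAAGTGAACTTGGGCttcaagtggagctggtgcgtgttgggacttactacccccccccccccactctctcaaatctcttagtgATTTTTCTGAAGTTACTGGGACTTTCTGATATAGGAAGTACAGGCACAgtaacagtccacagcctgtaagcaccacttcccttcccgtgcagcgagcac
Of the 32850 other windows, 3 shared any run of 15 bases with that of Ms4a6b, and 1, that of Ms4a6c, shared as many as 72 bases. No other pair among the 6 windows shared such a run.

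Letters of 7 transcription factor motifs were searched on both strands of the windows. GAGGAA, the core of the site for PU.1 (Spi1), the lineage factor of macrophages, was present in Ms4a4c from base -61 and in a window of Ms4a7 from base 44, and 28.3% of all 32851 windows held it. TGANTCA, the AP-1 site, was present in the other window of Ms4a7 from base -81, against 7.8% of windows. The interferon response element, TTGCNNAA (C/EBP), GTAAACA (FOXO), CACGTG (E-box) and TTCNNNGAA (STAT) were in none of the 6, against 3.4%, 10.8%, 3.6%, 7.2% and 8.3% of all windows. A shorter interferon-type motif, GAAANNGAA, was looked up after the sequences had been seen: the first shared run holds it as GAAAGTGAA, from base -206 in Ms4a6b and from base -133 in Ms4a6c, each window of Ms4a7 holds it on 1 strand, and 8.6% of all windows hold it. These are matches of letters only. The windows were poor in CpG, with 0 to 6 against a median of 7 over all windows, and their GC content was 31.7% to 45% against a median of 52.7%.

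The members varied widely between groups. The range of group means over the 16 groups was 7.28 on the log2 scale for Ms4a6c, 6.82 for Ms4a6d, 6.29 for Ms4a6b, 5.28 for Ms4a4a, 5.06 for Ms4a4c and 4.74 for Ms4a7, against a median of 0.73 over 19938 genes. These ranges ranked 2, 5, 8, 28, 33 and 54 among all genes. Csf1r, the gene of the receptor whose form sets the lines apart, had a range of 0.57.

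**Figure D1:**
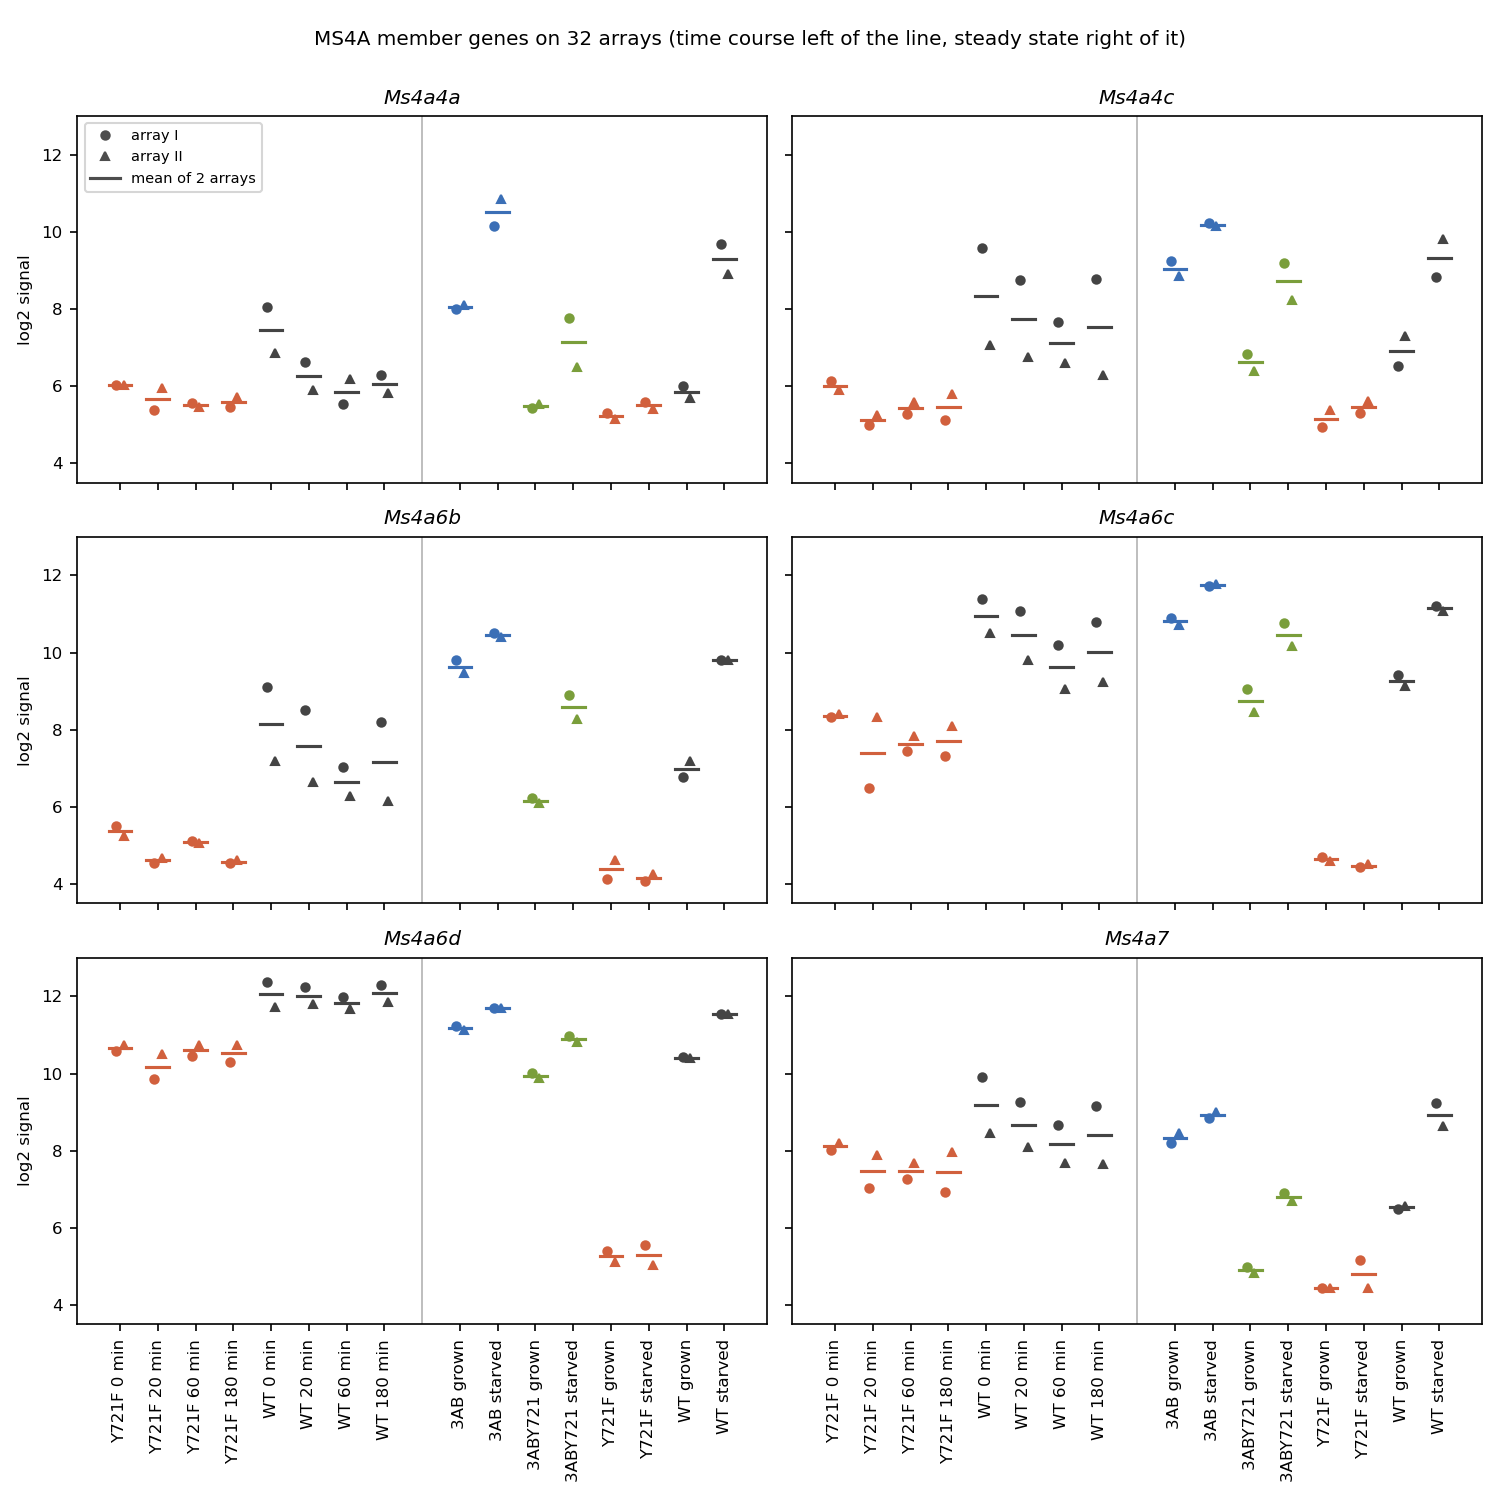
Log2 signal of the 6 genes on each of the 32 arrays (circles, array I; triangles, array II; bars, mean of the 2 arrays), with the time course left of the vertical line and the steady state right of it. Both steady-state states of Y721F lie at or near the bottom of all panels, Ms4a6d in the Y721F time course lies between 9.86 and 10.75, and in WT the circles of the time course lie above the triangles in all groups and panels except Ms4a4a at 60 min.

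Ms4a4a encodes the protein whose human counterpart associates with dectin-1 on macrophages. In the 3AB line it read 7.99 and 8.09 in grown cells, against 10.15 and 10.85 in starved cells. In 3ABY721 it read 5.44 and 5.54 in grown cells, against 7.77 and 6.50 in starved cells. The grown arrays lay below the starved arrays in both lines. In Y721F the values were 5.31 and 5.14 in grown cells, against 5.60 and 5.40 in starved cells, and in WT they were 6.0 and 5.68 in grown cells, against 9.68 and 8.90 in starved cells. Starved 3AB cells were thus highest, starved WT cells came second, and both Y721F states and grown 3ABY721 cells had means between 5.22 and 5.50, where starved Y721F and grown 3ABY721 arrays overlapped.

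Ms4a4c is a myeloid member that type I interferon induces in mouse cells. In 3AB cells it read 9.23 and 8.86 when grown, against 10.22 and 10.15 when starved. In 3ABY721 cells it read 6.83 and 6.40 when grown, against 9.20 and 8.24 when starved. Arrays of grown cells lay below those of starved cells in both lines. In Y721F it read 4.93 and 5.39 when grown, against 5.30 and 5.61 when starved, and in WT it read 6.51 and 7.29 when grown, against 8.82 and 9.81 when starved. The order of means put starved WT (9.32), grown 3AB (9.04) and starved 3ABY721 (8.72) side by side, and arrays of neighbours in this order overlapped.

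Ms4a6b has been studied mainly in mouse T cells, where it modulates proliferation. It read 9.81 and 9.46 in grown 3AB cells, against 10.51 and 10.41 in starved 3AB cells. In 3ABY721 it read 6.23 and 6.10 in grown cells, against 8.90 and 8.27 in starved cells. Grown 3AB cells thus read above starved 3ABY721 cells on both arrays. In Y721F it read 4.14 and 4.63 in grown cells, against 4.08 and 4.26 in starved cells, under the 20th percentile of all values in each case, and in WT it read 6.77 and 7.18 in grown cells, against 9.82 on both arrays of starved cells. Apart from the 2 Y721F states, no neighbouring groups in the order of the means overlapped.

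Ms4a6c is a transcript of mouse monocytes and the member with the widest range. It read 10.91 and 10.71 in grown 3AB cells, against 11.74 and 11.77 in starved 3AB cells. In 3ABY721 it read 9.05 and 8.46 in grown cells, against 10.77 and 10.16 in starved cells. Starved 3ABY721 and grown 3AB arrays overlapped. In Y721F it read 4.70 and 4.61 in grown cells, against 4.44 and 4.52 in starved cells, and in WT it read 9.41 and 9.13 in grown cells, against 11.22 and 11.07 in starved cells. The 2 Y721F states stood more than 3 log2 units below every other steady-state array.

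Ms4a6d is a macrophage member reported in mice to take part in regulating the inflammasome. It read 11.23 and 11.13 in grown 3AB cells, against 11.69 and 11.71 in starved 3AB cells. In 3ABY721 it read 10.01 and 9.88 in grown cells, against 10.97 and 10.82 in starved cells. Replicates differed little here. In Y721F it read 5.41 and 5.11 in grown cells, against 5.56 and 5.05 in starved cells, which overlap, and in WT it read 10.43 and 10.40 in grown cells, against 11.54 on both arrays of starved cells. Apart from the Y721F states, all neighbouring groups in the order of the means lay apart.

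Ms4a7 is a marker that in mouse brain separates border and blood-derived macrophages from microglia. It read 8.21 and 8.46 in grown 3AB cells, against 8.84 and 9.01 in starved 3AB cells. In 3ABY721 it read 4.98 and 4.82 in grown cells, against 6.90 and 6.69 in starved cells. Grown 3ABY721 cells lay near the floor, overlapping starved Y721F cells. In Y721F it read 4.44 and 4.45 in grown cells, against 5.18 and 4.44 in starved cells, and in WT it read 6.50 and 6.56 in grown cells, against 9.23 and 8.63 in starved cells. Unlike the other 5 genes, Ms4a7 had the same mean in starved WT and starved 3AB cells (8.93), and their arrays overlapped.

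All members were lower in grown than in starved cells of the 2 lines that have Tyr-721. A gene was called where limma's moderated test gave a Benjamini-Hochberg adjusted p under 0.05 over 19938 genes and the fold was above 1.5. In WT all 6 fell with growth, where 3.01% of all genes were called lower, with a median difference of -2.41 for the members and -0.025 for all genes. Ms4a4a fell by 3.45 on the log2 scale (10.9-fold, SE 0.34, limma adjusted p = 5.76e-05, n = 2 arrays each), and Ms4a6b fell by 2.84 (7.19-fold, SE 0.21). The difference was -2.42 for Ms4a4c, -2.40 for Ms4a7, -1.87 for Ms4a6c and -1.12 for Ms4a6d, the smallest of the 6. In 3ABY721 all 6 fell as well, where 0.672% of all genes were called lower, with a median of -1.80 against 0 for all genes. Ms4a6b fell by 2.42 (5.35-fold, SE 0.21, limma adjusted p = 5.35e-05) and Ms4a6d fell by 0.95 (1.93-fold, SE 0.16, limma adjusted p = 0.00655). The difference was -2.11 for Ms4a4c, -1.90 for Ms4a7, -1.71 for Ms4a6c and -1.65 for Ms4a4a. For Ms4a7 the grown 3ABY721 arrays read 4.98 and 4.82, near the floor, which bounds the fall that could be measured. For Ms4a4a they also read low, at 5.44 and 5.54, which bounds its fall in the same way.

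In the 3AB line 1 of the 6 was called, where 0.256% of all genes were called lower. Ms4a4a fell by 2.46 on the log2 scale (5.50-fold, SE 0.34, limma adjusted p = 0.003). The other 5 lay between -0.52 for Ms4a6d and -1.14 for Ms4a4c with adjusted p of 0.0527 to 0.313, and all 6 had an unadjusted p under 0.05. The grown arrays lay below the starved arrays for each of the 6 genes. In Y721F 0 of the 6 were called by limma, where 4.94% of all genes were called either way, and 0 had an unadjusted p under 0.05. The differences ran from -0.36 for Ms4a7 to 0.22 for Ms4a6b, and no array of either state read above 5.61 for any of the 6 genes.

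The effects of growth were compared between lines in the same fit. The difference of the growth effect, Y721F minus WT, was called higher for 4 of the 6 genes, where 0.0752% of all genes were called higher: 3.18 on the log2 scale for Ms4a4a (SE 0.48, limma adjusted p = 0.0184), 3.06 for Ms4a6b (SE 0.30, 0.000674), 2.05 for Ms4a6c (SE 0.29, 0.0142) and 2.04 for Ms4a7 (SE 0.31, 0.0226). Ms4a4c (2.12) and Ms4a6d (1.08) had adjusted p of 0.233 and 0.153. Starved Y721F cells read 4.08 to 5.61 for the 6 genes, close to the floor of the array, which bounds the fall that could be measured there. The difference of the growth effect, 3AB minus 3ABY721, was called by limma for 0 of the 6 genes, where 0.00502% of all genes were called either way, and 3 had an unadjusted p under 0.05. It ranged from -0.81 for Ms4a4a to 1.6 for Ms4a6b (SE 0.30, limma adjusted p = 0.541). Grown 3ABY721 cells read low for Ms4a4a and Ms4a7, which bounds the fall of these genes in that line.

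Some of these calls rested on single arrays. In 3ABY721, Ms4a4a was not called without array I of starved cells or without either grown array (adjusted p 0.176 to 0.255), and Ms4a4c and Ms4a6d were not called without array I of starved cells or array II of grown cells (adjusted p 0.108 to 0.117). In 3AB, Ms4a4a was not called without array II of starved cells (difference -2.11) or array I of grown cells (-2.41). Of the 4 differences between Y721F and WT, that of Ms4a6b was called without each array in turn, while those of Ms4a4a and Ms4a6c were lost without array I of starved WT, either array of starved Y721F or array II of grown Y721F cells, and that of Ms4a7 without array I of starved or grown WT or array II of starved or grown Y721F cells (adjusted p 0.0631 to 0.126). In 1 fit of all 32 arrays, which pools the spread of both experiments, the differences of Ms4a6b, Ms4a6c and Ms4a7 were not called (adjusted p 0.207, 0.282 and 0.27), nor were Ms4a4c in WT (0.0591) and Ms4a4c, Ms4a6c, Ms4a6d and Ms4a7 in 3ABY721 (0.22, 0.153, 0.0575 and 0.0748).

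**Figure D2:**
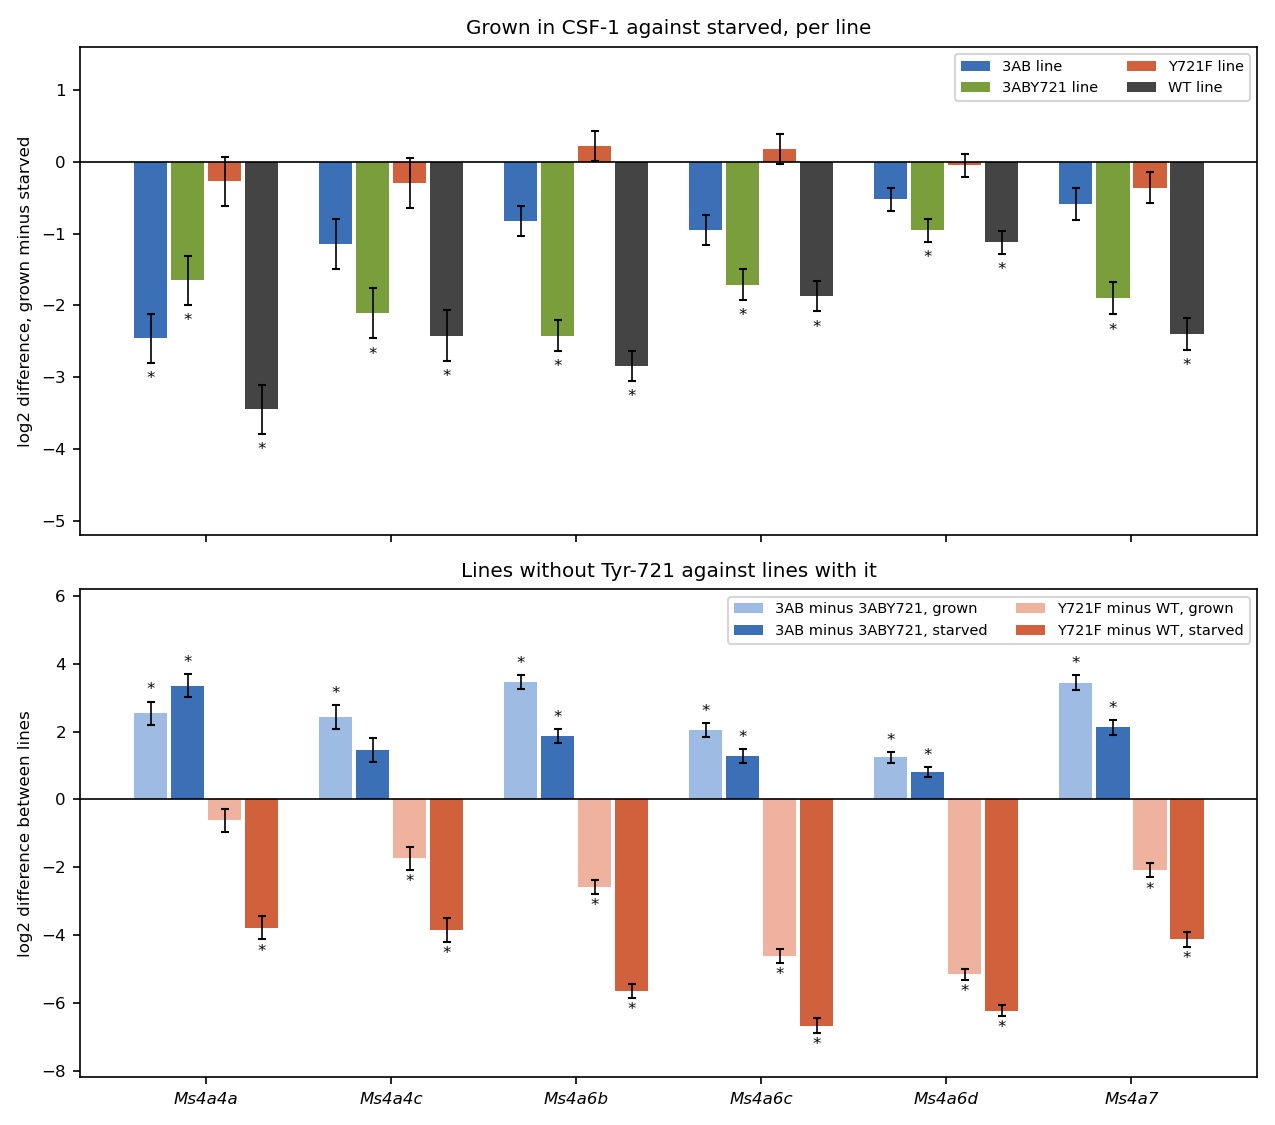
Log2 differences of the 6 genes in the steady state (bars) with their standard errors from the limma fit, 2 arrays per group; asterisks mark adjusted p under 0.05 with a fold above 1.5. The upper panel gives grown minus starved in each line, where 13 of 24 bars are called and all 13 are below 0; the lower panel gives 3AB minus 3ABY721, above 0 in all 12 bars, and Y721F minus WT, below 0 in all 12.

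The lines without Tyr-721 differed from those with it in opposite directions in the 2 pairs. In starved cells all 6 genes were lower in Y721F than in WT, where 7.66% of all genes were called lower, with a median difference of -4.89 against -0.005 for all genes. Ms4a6c fell by 6.67 on the log2 scale (101-fold, SE 0.21, limma adjusted p = 7.96e-11), and Ms4a6d fell by 6.23 (75.3-fold, SE 0.16). The difference was -5.65 for Ms4a6b (50.2-fold, SE 0.21), -4.12 for Ms4a7 (17.4-fold, SE 0.22), -3.86 for Ms4a4c and -3.79 for Ms4a4a. These folds are set against signals near the floor of the array and their size is uncertain. In grown cells 5 of the 6 were lower in Y721F, where 4.94% of all genes were called lower, with a median of -2.34 against 0.05 for all genes. The difference was -5.16 for Ms4a6d (35.6-fold, SE 0.16, limma adjusted p = 1.74e-10), -4.62 for Ms4a6c, -2.59 for Ms4a6b, -2.08 for Ms4a7 and -1.74 for Ms4a4c. Ms4a4a differed by -0.61 (SE 0.34, limma adjusted p = 0.279), with the Y721F arrays below the WT arrays. In 1 fit of all 32 arrays Ms4a4c was not called in grown cells (adjusted p 0.131).

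The 3AB line, which also lacks Tyr-721, read above 3ABY721. In grown cells all 6 genes were higher in 3AB, where 0.542% of all genes were called higher, with a median of 2.49 against -0.01 for all genes. Ms4a6b was higher by 3.47 (11.1-fold, SE 0.21, limma adjusted p = 1.54e-06) and Ms4a7 by 3.44 (10.8-fold, SE 0.22, limma adjusted p = 1.54e-06). For Ms4a7 the grown 3ABY721 arrays read 4.98 and 4.82, near the floor, so the size of that difference is uncertain. Ms4a4a was higher by 2.55, Ms4a4c by 2.43, Ms4a6c by 2.05 and Ms4a6d by 1.24. For Ms4a4a the grown 3ABY721 arrays also read low, at 5.44 and 5.54, so the size of its difference is uncertain too. In starved cells 5 of the 6 were higher, where 0.246% of all genes were called higher: Ms4a4a by 3.36 (10.3-fold, SE 0.34, limma adjusted p = 0.000164), Ms4a7 by 2.13, Ms4a6b by 1.88, Ms4a6c by 1.29 and Ms4a6d by 0.81. Ms4a4c differed by 1.47 (limma adjusted p = 0.0898). The starved calls of Ms4a6d and Ms4a6c were the weakest: the first was lost without any of the 4 arrays (adjusted p 0.145 to 0.334), the second without array II of 3ABY721 or either 3AB array (0.0689 to 0.138). In 1 fit of all 32 arrays Ms4a6b, Ms4a6c, Ms4a6d and Ms4a7 were not called in starved cells (0.221, 0.48, 0.202 and 0.0575), nor Ms4a4c and Ms4a6c in grown cells (0.139 and 0.0707).

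The difference between the pairs was fitted itself, a comparison added after the values were seen. The effect in the 3AB pair minus that in the Y721F pair was called higher for 6 of 6 genes in grown cells, where 4.85% of all genes were called higher, and for 6 of 6 in starved cells, where 6.91% were. In grown cells it ran from 3.16 for Ms4a4a (SE 0.48, limma adjusted p = 0.00081) to 6.67 for Ms4a6c (SE 0.29, limma adjusted p = 1.03e-08). In starved cells it ran from 5.33 for Ms4a4c (SE 0.49, limma adjusted p = 1.4e-05) to 7.95 for Ms4a6c (SE 0.29, limma adjusted p = 8.72e-10). No Y721F array of either state read above 5.61 for any of the 6 genes, close to the floor, so these sizes are uncertain. All 12 calls held without each of the arrays in turn.

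Lines that share the state of Tyr-721 also differed. 3AB read above Y721F in all 6 genes, both grown, where 4.65% of all genes were called higher, and starved, where 5.08% were. In starved cells Ms4a6c was higher in 3AB by 7.28 on the log2 scale (155-fold, SE 0.21, limma adjusted p = 2.3e-11) and Ms4a7 by 4.12. The sizes are uncertain here too, since starved Y721F cells read 4.44 and 4.52 for Ms4a6c, under the 20th percentile of all values. 3ABY721 read closer to WT. In grown cells 1 of the 6 was lower in 3ABY721, where 0.166% of all genes were called lower: Ms4a7, at -1.63 (SE 0.22, limma adjusted p = 0.00826), a call lost without array I of WT or either 3ABY721 array (adjusted p 0.0825 to 0.116). The grown 3ABY721 arrays read 4.98 and 4.82 for Ms4a7, near the floor, so the size of its difference in grown cells is uncertain. In starved cells 3 of the 6 were lower in 3ABY721, where 1.48% of all genes were called lower: the difference was -2.15 for Ms4a4a, -2.13 for Ms4a7 and -1.23 for Ms4a6b. The call of Ms4a7 held without each array, that of Ms4a4a was lost without array I of WT or array II of 3ABY721 (adjusted p 0.0857 and 0.0984), and that of Ms4a6b was lost without either WT array or array II of 3ABY721 (0.0522 to 0.176). In 1 fit of all 32 arrays Ms4a7 in grown and Ms4a6b in starved cells were not called (0.167 and 0.252). The comparisons of Y721F, 3AB and 3ABY721 share arrays with one another and are not independent.

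Other macrophage genes moved in the same comparisons. Of the 11 macrophage markers, 5 were lower in Y721F than in WT in starved cells (Fcgr1, Mrc1, Mertk, Cd14 and Itgam) and 0 higher. Among all genes 7.66% were called lower in this comparison. The median difference was -0.38 for the markers and -0.005 for all genes. Fcgr1, the high-affinity IgG receptor, averaged 7.42 in starved Y721F cells and 11.80 in starved WT cells, a difference of -4.38 (SE 0.21, limma adjusted p = 7.26e-09). Mertk, a receptor for apoptotic cells, averaged 8.23 in grown WT cells and 10.02 in starved WT cells, a difference of -1.79 (SE 0.17, limma adjusted p = 5.36e-05). In grown cells 3 of the 11 markers were higher in 3AB than in 3ABY721 (Mertk, Mrc1 and Fcgr1), where 0.542% of all genes were called higher. With growth in WT 4 were lower (Mertk, Mrc1, Adgre1 and Lyz2), where 3.01% of all genes were called lower. With growth in Y721F 4 were lower (Mertk, Lyz2, Fcgr1 and Adgre1) and 1, Mrc1, was higher, where 4.94% of all genes were called either way. In 3ABY721 2 were lower (Mertk and Lyz2), against 0.672% of all genes, and in 3AB 1 (Mertk), against 0.256%. The mean of the list was 9.90 and 10.03 in starved Y721F cells and 11.06 and 11.16 in starved WT cells. The mean of the 6 fibroblast markers was 6.91 and 7.05 in starved Y721F cells and 6.52 and 6.32 in starved WT cells. Of these, 1 gene, Pdgfra, was higher in Y721F by 1.50 (SE 0.36, limma adjusted p = 0.0119). Over all genes 692 of 19938 were called higher in that comparison. Csf1r itself averaged 13.05 in starved Y721F cells and 13.30 in starved WT cells, and Spi1 averaged 10.94 and 11.04, neither of them called. Of the B and T cell lists, Cd22 and Cd2 were lower in Y721F than in WT, at -1.74 and -2.21 in starved cells and at -1.38 and -1.42 in grown cells. Cd2 also fell with growth in WT, by 1.42. The part of these marker changes in the results on the 6 members was not tested.

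Partners of MS4A proteins and the receptors they modulate gave a smaller set of calls. Of 17 listed genes, 4 were lower in grown than in starved WT cells (Clec7a, Fcgr4, Tyrobp and Syk). Among all genes 3.01% were called lower there. In Y721F 3 were lower with growth (Clec7a, Fcgr1 and Syk), where 4.94% of all genes were called either way. In 3ABY721 and in 3AB 1, Clec7a, was lower, against 0.672% and 0.256% of all genes called lower. None of the 17 was higher with growth in any line. Clec7a encodes dectin-1. It averaged 7.53 in grown WT cells and 10.71 in starved WT cells, and 5.47 in grown Y721F cells and 9.11 in starved Y721F cells. Its fall of 3.64 in Y721F (SE 0.19, limma adjusted p = 2.72e-07) came in a line in which Ms4a4a read 5.14 to 5.60 in both states. In starved cells 4 of the 17 were lower in Y721F than in WT (Fcgr1, Cd81, Clec7a and Fcgr2b), against 7.66% of all genes. In grown cells 2 were higher in 3AB than in 3ABY721 (Clec7a and Fcgr1), against 0.542% of all genes.

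Of 16 other listed family genes 14 were measured, and their list mean lay between 4.69 and 5.27 on every array. Ms4a1 (CD20) read at most 4.67 and Ms4a2 at most 4.27 on any array, below the 20th percentile of all values. With growth in WT 2 of the 14 were lower, Ms4a8a and Ms4a4b, and 0 higher, with a median of -0.09. Among all genes 3.01% were called lower there. Between Y721F and WT in starved cells 3 were lower, Ms4a8a, Ms4a4b and Ms4a4d, and 2 higher, Ms4a15 and Ms4a10. Over all genes 7.66% were called lower and 692 of 19938 higher in that comparison. Ms4a8a averaged 6.54 in grown WT cells and 8.12 in starved WT cells, a fall of 1.58 (SE 0.26, limma adjusted p = 0.0028), and Y721F minus WT was -2.25 in starved and -1.01 in grown cells, both called. Between 3AB and 3ABY721 it differed by -0.06 in grown and 0.28 in starved cells, neither called. Ms4a4b, a gene of T cells that lies between Ms4a4c and Ms4a6c, fell by 1.14 with growth in WT, and Y721F minus WT was -1.47 in starved cells, on signals of 4.19 to 5.96 in these 3 groups. MS4A genes of this cluster are near copies, and how far a probe set reads RNA of a neighbour was not tested.

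In the time course no member was called against 0 min in the fit that takes the arrays as unpaired. In WT 0 of the 6 were called by limma at 20 min, where 0.16% of all genes were called either way, 0 at 60 min (0.632%) and 0 at 180 min (2.16%), and 1 of the 6, Ms4a4a, had an unadjusted p under 0.05 at each time. The median difference of the members from 0 min was -0.54, -1.25 and -0.85 at 20, 60 and 180 min, against medians of all genes between -0.015 and 0. In Y721F 0 of the 6 were called by limma at 20 min (0.0802% of all genes), 60 min (0.176%) and 180 min (0.261%), 0 had an unadjusted p under 0.05, and the medians were -0.71, -0.55 and -0.61. A replicate block within each line takes the spread between numbers I and II out of the error. With it 5 members were called in WT at 60 min, where 745 of 19938 genes were called. At 180 min 3 were called in WT (1557 genes) and 1 in Y721F (1074 genes). The labels do not state that these numbers pair arrays.

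Ms4a4a in WT read 8.04 and 6.86 at 0 min, 6.63 and 5.91 at 20 min, 5.53 and 6.19 at 60 min and 6.28 and 5.83 at 180 min. All arrays after 0 min lay below both arrays of 0 min. The difference was -1.59 at 60 min (3.01-fold, SE 0.37, limma adjusted p = 0.094) and -1.39 at 180 min (limma adjusted p = 0.0764). Both were called in 1 fit of all 32 arrays (adjusted p 0.0429 and 0.0377). Ms4a6b in WT read 9.10 and 7.20 at 0 min, 8.51 and 6.66 at 20 min, 7.03 and 6.29 at 60 min and 8.20 and 6.15 at 180 min. The 2 arrays of a time lay 0.74 to 2.05 apart, and the means differed from 0 min by -0.57, -1.49 and -0.97. Within array series I Ms4a6b differed from 0 min by -0.59, -2.07 and -0.90, and within series II by -0.54, -0.91 and -1.05. Ms4a6c differed by -0.29, -1.18 and -0.58 within series I and by -0.68, -1.44 and -1.25 within series II.

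Ms4a6d was the steadiest in WT, at 12.38 and 11.73 at 0 min, 12.24 and 11.79 at 20 min, 11.99 and 11.68 at 60 min and 12.30 and 11.85 at 180 min. In Y721F it read 10.59 and 10.75, 9.86 and 10.50, 10.46 and 10.75, and 10.30 and 10.74 at the same times. The arrays of the 2 lines did not overlap at any time. Ms4a4c in WT read 9.58 and 7.07 at 0 min and 7.65 and 6.61 at 60 min, and Ms4a7 read 9.92 and 8.45 at 0 min and 8.67 and 7.67 at 60 min. The arrays of the 2 times overlapped for both genes. Within series I Ms4a4c differed from 0 min by -1.93 and Ms4a7 by -1.25, and within series II by -0.46 and -0.78.

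The responses of the lines were compared as the change from 0 min in Y721F minus that in WT. At 20, 60 and 180 min limma called 0 of the 6 members and 0% of all genes, and 0 members had an unadjusted p under 0.05. The standard errors ran from 0.39 for Ms4a6d to 1.26 for Ms4a4c. Ms4a4a, Ms4a4c and Ms4a6b in Y721F averaged 6.03, 6.02 and 5.38 at 0 min, not far above the 20th percentile of all values (4.85). That bounds the fall that could be measured for them in this line.

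Between the lines, Ms4a6d was lower in Y721F at 3 of 4 times, the only member called in the fit of the 16 time course arrays. The difference was -1.38 at 0 min (2.61-fold, SE 0.28, limma adjusted p = 0.0498), where 0.306% of all genes were called lower. It was -1.84 at 20 min (3.57-fold, limma adjusted p = 0.00925), where 0.537% were called lower, and -1.55 at 180 min (2.94-fold, limma adjusted p = 0.0218), where 0.446% were. At 60 min 0 of the 6 were called by limma, where 0.823% of all genes were called either way, and 2 had an unadjusted p under 0.05; Ms4a6d differed by -1.23 (limma adjusted p = 0.0766). Ms4a6c, Ms4a6b and Ms4a4c had larger differences with larger errors, for example -3.05 for Ms4a6c at 20 min (SE 0.67, limma adjusted p = 0.0621) and -2.97 for Ms4a6b (SE 0.72, limma adjusted p = 0.0927), and the Y721F arrays lay below the WT arrays for these 3 genes at each time. Ms4a6b in Y721F read 4.55 and 4.68 at 20 min and 4.54 and 4.63 at 180 min, under the 20th percentile of all values. The size of its difference is uncertain at these times. The count of calls was 10 in 1 fit of all 32 arrays, against 3: Ms4a6b was called at 0, 20 and 180 min (adjusted p 0.00855, 0.00385 and 0.0131), Ms4a6c at the same times (0.00896, 0.00143 and 0.0182) and Ms4a6d also at 60 min (0.00471). In the fit of the 16 time course arrays, the Ms4a6d calls at 0 and 180 min were lost without any 1 of the 4 arrays compared. Its difference was then -1.06 to -1.71 at 0 min and -1.33 to -1.78 at 180 min. The Ms4a6d call at 20 min was lost without array I of WT (-1.61) or of Y721F (-1.51). Of the 17 partners, 1 was lower in Y721F at 20 min, Clec7a, at -2.26 (SE 0.43, limma adjusted p = 0.0312), and 1 at 180 min, Cd81, at -1.21. Of the B cell markers, Cd22 was lower in Y721F at all 4 times, at -1.79 to -2.19. Of the 14 other family genes, Tmem176b was higher in Y721F at 0 min by 2.86 (SE 0.50, limma adjusted p = 0.0253) and at 60 min by 2.72. At these times 84 and 83 of 19938 genes were called higher.

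**Figure D3:**
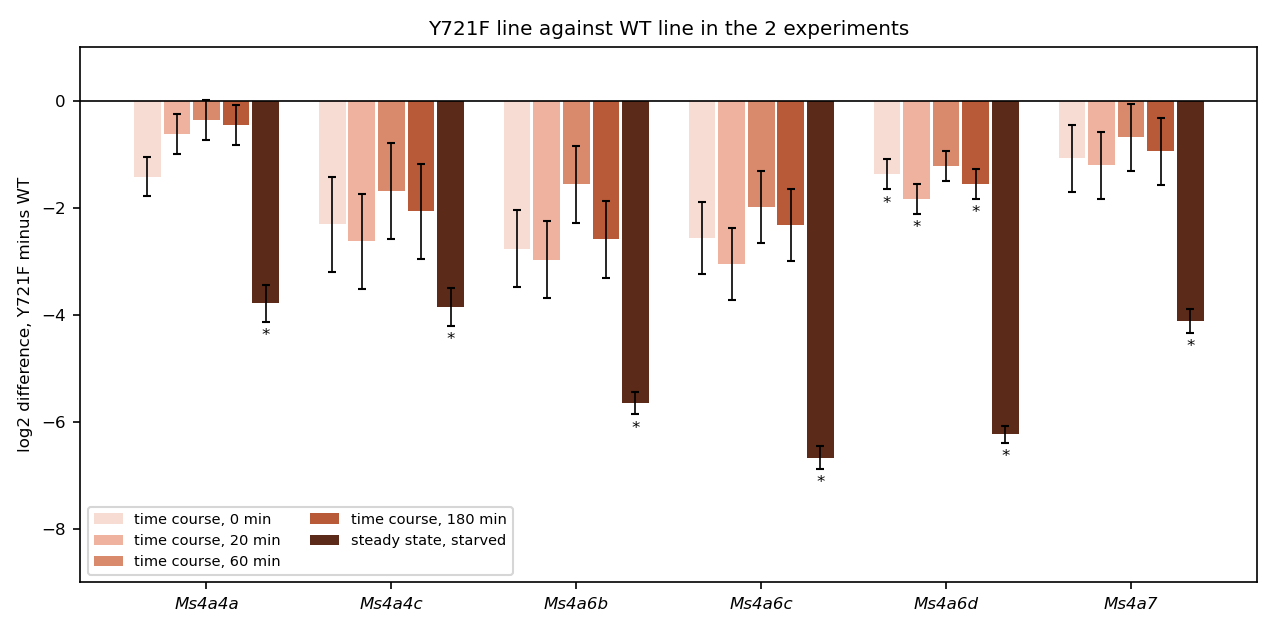
Log2 difference of Y721F minus WT (bars) with standard errors from the limma fit of each experiment, 2 arrays per group, for the 4 times of the time course and for starved cells of the steady state; asterisks mark called differences. The dark bars of the steady state run from -3.79 to -6.67, below the bars of the time course in all 6 genes.

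The size of the line difference was compared between the experiments in 1 fit of all 32 arrays, also added after the values were seen. The difference of Y721F and WT in starved cells minus that at 0 min was called lower for 4 of the 6 genes, where 0.813% of all genes were called lower. It was -4.85 for Ms4a6d (SE 0.33, limma adjusted p = 3.14e-08), -4.09 for Ms4a6c (SE 0.74, limma adjusted p = 0.0104), -3.05 for Ms4a7 (SE 0.69, limma adjusted p = 0.0298) and -2.36 for Ms4a4a (SE 0.54, limma adjusted p = 0.0304). Ms4a6b (-2.88) and Ms4a4c (-1.55) had adjusted p of 0.0612 and 0.417. The call of Ms4a6d held without each of the 8 arrays. That of Ms4a6c was lost without array II of WT (-3.65) or array I of Y721F (-4.12) at 0 min. Those of Ms4a4a and Ms4a7 were lost without either of these arrays too. They were also lost without array II of Y721F at 0 min, array I of starved WT or array II of starved Y721F cells. The call of Ms4a7 was also lost without array II of starved WT cells. Experiment, culture and line stock cannot be told apart here.

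The members resembled each other to different degrees. Over the 16 group means, Pearson's r of the 15 pairs had a median of 0.79, from 0.44 for Ms4a4a with Ms4a6d to 0.99 for Ms4a4c with Ms4a6b. Ms4a6b and Ms4a6c, which share promoter sequence, had r = 0.90. The windows of Ms4a4c and Ms4a6b, the pair with the highest r, shared no run of at least 15 bases. The part of shared promoter sequence in these values was not tested. Within the 8 groups of the time course the median was 0.96 and within the 8 of the steady state 0.93. The 16 points share lines and experiments, and no p is given.

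**Figure D4:**
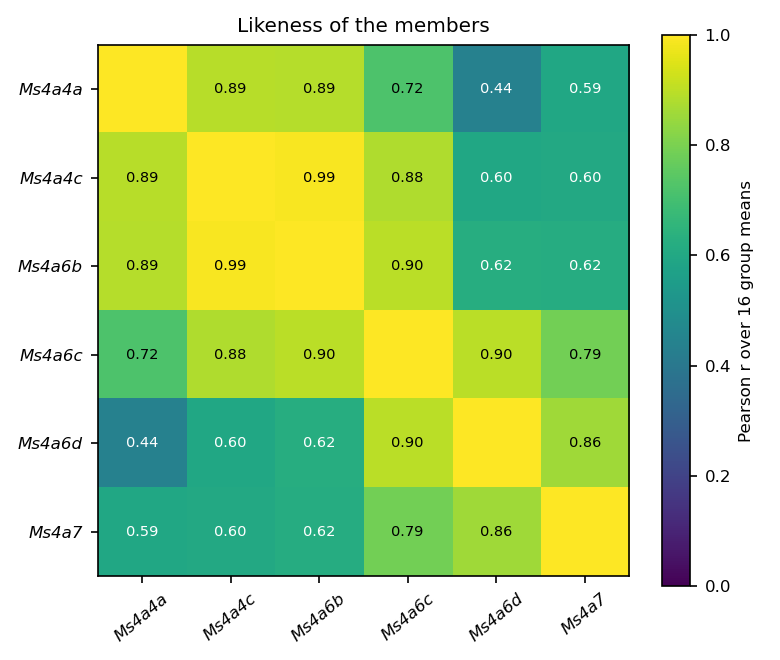
Pearson's r between the group means of each pair of the 6 genes over the 16 groups (colour, 0 to 1). Ms4a4a, Ms4a4c, Ms4a6b and Ms4a6c had r of 0.72 to 0.99 with each other, and Ms4a6d was nearest to Ms4a6c and Ms4a7.

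Among 6228 genes whose group means ranged over at least 1 on the log2 scale, those most like each member were listed. For Ms4a4a they were Ly9, a receptor of the SLAM family (r = 0.93), Gm4788 (0.92) and Clec4b1 (0.92). For Ms4a4c they were Aoah, the enzyme that removes acyl chains from lipopolysaccharide (0.97), Tpd52 (0.96) and the family gene Ms4a4b (0.96), and Aoah also led for Ms4a6b (0.96), before Gm4951 (0.96) and Il12rb2, a chain of the interleukin-12 receptor (0.95). For Ms4a6c they were the lectin Cd72 (0.98), Parp11 (0.96) and the interferon-induced Ifit3 (0.96). For Ms4a6d they were Oasl2, another interferon-induced gene (0.99), Usp25 (0.97) and Selplg, the selectin ligand PSGL-1 (0.96). For Ms4a7 they were the corepressor Bcor (0.95), C1qb, a chain of complement C1q (0.94), and Slc8a1, a sodium-calcium exchanger (0.94).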

How the data were processed

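The deposited table gives log2 signals for 35556 probe sets on 32 arrays. Its values and column medians (5.97 to 6.22) show a log2 scale; the sources used here do not state the authors' background correction or normalization. Per the labels, total RNA was extracted with Trizol and biotin-labelled for 1 colour. Of the probe sets, 21789 named 1 gene, 1621 several and 12146 none; only those naming 1 gene were used, and for genes with several, that of highest mean signal was kept (19938 genes). Gene names and neighbours are from the array annotation and RefSeq (GRCm38.p6).

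Group means were fitted with limma 3.58.1 (R 4.3.3; lmFit, eBayes, 8 residual degrees of freedom) separately on the 16 time course and the 16 steady-state arrays, without covariates, tested on simulated data first. Per the design text, the submitters used limma with a fold above 1.5 and an unadjusted p under 0.05; here p was adjusted, with their cutoff as an alternative. The other alternatives were quantile normalization, a filter on dim genes, the mean of a gene's probe sets, 1 fit of 32 arrays, an intensity trend, a replicate block, no fold threshold and each array left out. Named genes are the 6 members, Csf1r, Spi1, the 3 genes most like each member and up to 4 called genes of a list; Mertk and the macrophage markers were named beyond this rule. With 2 arrays a group, replicate number limits the precision. The members and lists were chosen with earlier results of these data known. Figures were drawn with matplotlib 3.10.9 in Python 3.11.15.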

Additional observations from a re-analysis of the deposited data

Results flagged for a closer look

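Effects under the same contrast differed between lines or experiments for these members, each by a test of the difference itself; values are on the log2 scale with limma's adjusted p, and no explanation was weighed. The change with growth in Y721F minus that in WT was 3.18 for Ms4a4a (0.0184), 3.06 for Ms4a6b (0.000674), 2.05 for Ms4a6c (0.0142) and 2.04 for Ms4a7 (0.0226).

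The difference of 3AB and 3ABY721 minus that of Y721F and WT was, in grown cells, 3.16 for Ms4a4a (0.00081), 4.17 for Ms4a4c (0.000101), 6.06 for Ms4a6b (3.61e-08), 6.67 for Ms4a6c (1.03e-08), 6.39 for Ms4a6d (1.12e-09) and 5.52 for Ms4a7 (1.15e-07). In starved cells it was 7.15 for Ms4a4a (4.57e-07), 5.33 for Ms4a4c (1.4e-05), 7.53 for Ms4a6b (2.35e-09), 7.95 for Ms4a6c (8.72e-10), 7.04 for Ms4a6d (2.86e-10) and 6.25 for Ms4a7 (3.64e-08). Y721F cells read close to the floor for these genes in both states, so the sizes are uncertain.

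The difference of Y721F and WT in starved cells of the steady state minus that at 0 min of the time course was -2.36 for Ms4a4a (0.0304), -4.09 for Ms4a6c (0.0104), -4.85 for Ms4a6d (3.14e-08) and -3.05 for Ms4a7 (0.0298).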

How the results depend on the processing

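Of 74 called differences of single members, 74 kept direction and call with the dim filter, the intensity trend and the replicate block. With quantile normalization 73 did so, and Ms4a6d in starved 3AB against 3ABY721 cells had a limma adjusted p of 0.0581. The probe set mean and no fold threshold also kept all 74 but are no checks of these calls. Each member had 1 probe set, so its values stayed the same, and dropping the fold threshold cannot lose a call. In 1 fit of all 32 arrays 17 lost the call, among them Ms4a4c in grown against starved WT cells (adjusted p 0.0591) and Ms4a4c, Ms4a6c, Ms4a6d and Ms4a7 in 3ABY721 (0.22, 0.153, 0.0575 and 0.0748); the cause was not tested. The called members in time course comparisons against 0 min went to 2 in that fit and 3 with the series text's unadjusted cutoff, against 0; those of Y721F against WT in the time course went to 10 and 15, against 3. In the 1 fit the grown against starved comparisons had 8 calls, against 13, and the differences of growth effects 1, against 4 (9 with the unadjusted cutoff). The median r of the member pairs was 0.96 in the time course and 0.93 in the steady state, against 0.79. Without 1 array the counts ran from 0 to 2 (time course, 2 without WT array II at 0 min and 1 without WT array II at 60 min), 0 to 0 (responses), 1 to 4 (Y721F against WT in the time course, 1 without WT array I at 20 min or any array at 180 min of either line), 11 to 14 (growth), 1 to 6 (differences of growth effects, 1 without WT starved I, Y721F starved II or Y721F grown II), 20 to 23 (lines without against with Tyr-721), 14 to 17 (lines alike at Tyr-721), 12 to 12 (the difference between the pairs) and 1 to 5 (the difference between the experiments, 1 without WT array II or Y721F array I at 0 min). With 2 arrays a group, a left-out array leaves 1 that is assumed to vary like the other groups.

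Numbers I and II of the labels are not stated to pair arrays. In the time course, deviations of same-numbered arrays from their group means correlated at 0.49 to 0.73 within WT and 0.35 to 0.65 within Y721F, and at -0.06 to 0.29 between the lines; in the steady state they correlated at 0.04 to 0.28 within a line. With the replicate block within each line, 9 members' differences were called in the time course against 0 min (5 in WT at 60 min, 3 in WT at 180 min and 1 in Y721F at 180 min) and 21 between Y721F and WT, while genes called in all went to 745 in WT at 60 min, against 126. The block takes the spread between numbers I and II out of the error. A comparison of lines has to be judged against that spread, so the 21 calls are likely too many.

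Changes of sign met only differences that were not called. Ms4a6d in grown against starved Y721F cells was 0.02 with quantile normalization. The rest came from leaving out 1 array, as follows on the log2 scale. In WT at 20 min the differences covered Ms4a4c -1.83 to 0.68, Ms4a6b -1.52 to 0.38, Ms4a6c -1.12 to 0.15, Ms4a6d -0.36 to 0.29, Ms4a7 -1.25 to 0.22. In WT at 60 min the differences covered Ms4a4c -2.45 to 0.06, Ms4a6d -0.55 to 0.10. In WT at 180 min the differences covered Ms4a4c -2.05 to 0.46, Ms4a6b -2.0 to 0.05, Ms4a6d -0.31 to 0.34. In Y721F at 60 min the differences covered Ms4a6d -0.21 to 0.08. In Y721F at 180 min the differences covered Ms4a6d -0.37 to 0.07. For the response of Y721F minus WT at 20 min the differences covered Ms4a4c -1.57 to 0.94, Ms4a6b -1.15 to 0.75, Ms4a6c -1.40 to 0.45, Ms4a7 -0.87 to 0.60. For that at 60 min the differences covered Ms4a4c -0.64 to 1.87, Ms4a6d -0.17 to 0.48, Ms4a7 -0.35 to 1.12. For that at 180 min the differences covered Ms4a4c -1.01 to 1.50, Ms4a6b -0.84 to 1.2, Ms4a6c -0.52 to 1.03, Ms4a6d -0.49 to 0.16, Ms4a7 -0.63 to 0.86. In grown against starved Y721F cells the differences covered Ms4a6b -0.03 to 0.46, Ms4a6d -0.30 to 0.21, Ms4a7 -0.73 to 0.01. Between 3ABY721 and WT in grown cells the differences covered Ms4a4c -0.67 to 0.10.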
